A study of Homo sapiens with 72 samples.

Results

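The response to sodium arsenite was measured in human U2OS osteosarcoma cells that carry a knockout of G3BP1 and G3BP2 and received, by transient transfection, a G3BP1 transgene lacking the NTF2 domain. The rule took the deposited comparison of 2 libraries from transfected cells given 200 uM sodium arsenite for 2 h against 2 libraries from transfected cells without arsenite, and kept each Ensembl gene row, which gave 61541 genes, the same number that each of the series' 11 deposited tables lists. These 4 libraries are part of 72 in the series. Both groups were labelled as collected 24 h after lipofection, and both carry the knockout. The 2 responses used for comparison come from the same knockout cells without a transgene (2 untreated and 2 arsenite libraries) and from the knockout rescued by transfected wild-type G3BP1 (2 and 2), with the same arsenite dose and time. The labels name no mock transfection, so the cells without a transgene differ from both rescues in lipofection as well as in G3BP1. They give no number of knockout clones and do not say whether libraries of a group came from separate cultures, so p-values measure the spread between these libraries, which may be technical.

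G3BP1 is an RNA-binding protein that nucleates stress granules, the cytoplasmic bodies in which stalled messenger ribonucleoproteins collect when translation stops. Its NTF2-like domain forms dimers and binds partner proteins such as Caprin-1 and USP10. Arsenite binds protein thiols and causes oxidative and proteotoxic stress. Known transcriptional arms of that stress are metal-responsive induction of metallothioneins through MTF1, the heat shock response through HSF1, the antioxidant response through NRF2, the immediate-early response through stress-activated MAP kinases, and the ATF4 programme that follows eIF2alpha phosphorylation. In bulk samples, fewer cells of a type and less RNA per cell cannot be told apart.

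G3BP1 checked the transfection labels. It took 5.32% and 5.16% of gene reads in the untreated libraries with the NTF2-deletion transgene and 6.08% and 6.22% in the arsenite libraries, against 0.0238% to 0.0292% in the 4 libraries without a transgene and 3.83% to 5.17% in the 4 with wild-type G3BP1. Reads of the transgene and of the edited endogenous gene were counted together, and the reads in cells without a transgene show that the knockout leaves some G3BP1 RNA. In the authors' deposited table G3BP1 was higher with arsenite (log2 fold change 0.23, SE 0.03, Wald test adjusted p = 2.12e-12), and G3BP2 was not called (log2 fold change 0.09, adjusted p = 0.491). The 4 libraries held 14572458 to 16164909 gene reads, and libraries of a group differed by more than sampling noise. Of 11 osteoblast-lineage and mesenchymal markers, 10 had reads, with a summed level of 2385 to 2440.0 RPM (gene reads scaled to a library total of 1000000) in untreated and 2047 to 2057 in arsenite libraries (DLX5 was at 0 untreated and TWIST1 with arsenite). Of 12 markers of other cell types, 6 had reads, summing to 24.7 to 27.0 RPM, and MYH7, ALB and CD3E were among those at 0 in both groups.

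Promoter sequences of 5 genes called higher are shown, of which MT2A and CHORDC1 rose less than the others. Metal response and heat shock elements are the known control sequences of the most strongly induced gene groups. Each sequence is the 250 bases before the start site in RefSeq (GRCh38.p14). In the metallothionein genes, capitals mark the core of the metal response element, TGCACNC or TGCGCNC on either strand. MT1X lies at chr16:56682220-56682469 (+) with 4 matches and MT2A at chr16:56608334-56608583 (+) with 7.
MT1X: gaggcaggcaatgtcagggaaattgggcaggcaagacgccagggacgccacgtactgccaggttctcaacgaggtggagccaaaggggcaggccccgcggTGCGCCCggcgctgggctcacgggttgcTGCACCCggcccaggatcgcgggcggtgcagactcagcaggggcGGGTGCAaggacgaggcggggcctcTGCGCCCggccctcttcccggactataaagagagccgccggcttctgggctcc
MT2A: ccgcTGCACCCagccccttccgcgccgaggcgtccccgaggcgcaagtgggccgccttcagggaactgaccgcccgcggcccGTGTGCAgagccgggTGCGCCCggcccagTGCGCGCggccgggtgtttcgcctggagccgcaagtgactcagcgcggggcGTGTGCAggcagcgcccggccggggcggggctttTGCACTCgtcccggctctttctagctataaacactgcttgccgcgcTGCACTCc
In the chaperone genes, capitals mark inverted pairs of the heat shock element unit, GAANNTTC or TTCNNGAA on either strand, which can overlap each other. HSPA1B lies at chr6:31827488-31827737 (+) with 1 match, HSPA6 at chr1:161524290-161524539 (+) with 3 and CHORDC1 at chr11:90223050-90223299 (-) with 6.
HSPA1B: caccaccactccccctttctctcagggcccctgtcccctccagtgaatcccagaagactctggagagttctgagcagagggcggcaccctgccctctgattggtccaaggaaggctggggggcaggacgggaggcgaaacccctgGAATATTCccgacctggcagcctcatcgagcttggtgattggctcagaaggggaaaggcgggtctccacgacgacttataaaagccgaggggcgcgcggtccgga
HSPA6: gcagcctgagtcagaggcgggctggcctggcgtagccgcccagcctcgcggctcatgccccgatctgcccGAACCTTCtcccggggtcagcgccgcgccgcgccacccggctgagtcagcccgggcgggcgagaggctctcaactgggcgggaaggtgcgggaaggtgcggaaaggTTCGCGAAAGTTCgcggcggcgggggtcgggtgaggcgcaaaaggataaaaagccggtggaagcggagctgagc
CHORDC1: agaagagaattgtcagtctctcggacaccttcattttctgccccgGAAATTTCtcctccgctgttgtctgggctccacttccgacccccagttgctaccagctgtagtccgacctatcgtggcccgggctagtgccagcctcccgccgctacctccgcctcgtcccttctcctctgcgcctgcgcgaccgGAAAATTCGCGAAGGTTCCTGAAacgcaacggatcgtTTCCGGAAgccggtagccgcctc
The metal element core is common: 29.6% of all 35116 RefSeq windows of 300 bases hold it, as do 47.1% of 9067 tested genes with a window and 47.7% of 220 such genes called higher. The pair of heat shock units is in 13.5% of windows, 13.7% of tested genes and 21.4% of genes called higher. It was found in 10 of 15 chaperone genes called higher that have a window, and HSPH1, BAG3 and HSPE1 were among those without it. The longer form with 3 units (GAANNTTCNNGAA or TTCNNGAANNTTC) is in 0.49% of windows and in 5 of those 15. A match describes letters, not binding.

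The authors' test called a minority of transcripts changed by arsenite, most of them by little. Of 11578 genes that the authors' deposited table tests, 281 (2.43%) were called higher and 711 (6.14%) lower at an adjusted p under 0.05, so 8.57% were called. Limma on the recovered reads called 955 and 1472, which include all 992. The median log2 fold change in the authors' deposited table was 0.31 among genes called higher and -0.30 among those called lower, and 16 called genes rose and 3 fell by at least 1. Each of the 992 called genes had both arsenite libraries beyond both untreated ones in the called direction. Among all 16072 genes that averaged 10 or more normalised reads over the 4 libraries (their base mean), that was so of 26.3% upward and 26.5% downward. Called genes had more reads than tested genes as a whole, with a median base mean of 1439 for those called higher, 1779 for those called lower and 545 for all, and nearly all are protein coding (95.6%, 95.6% and 94.0%, the last over all tested). Their median gene lengths were 25396 bases, 29840.0 bases and 31185 bases in the same order. Deposited fold changes are shrunken towards 0, so folds below are ratios of mean RPM, computed from reads recovered from the deposited base means, beside the deposited values.

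**Figure D1:**
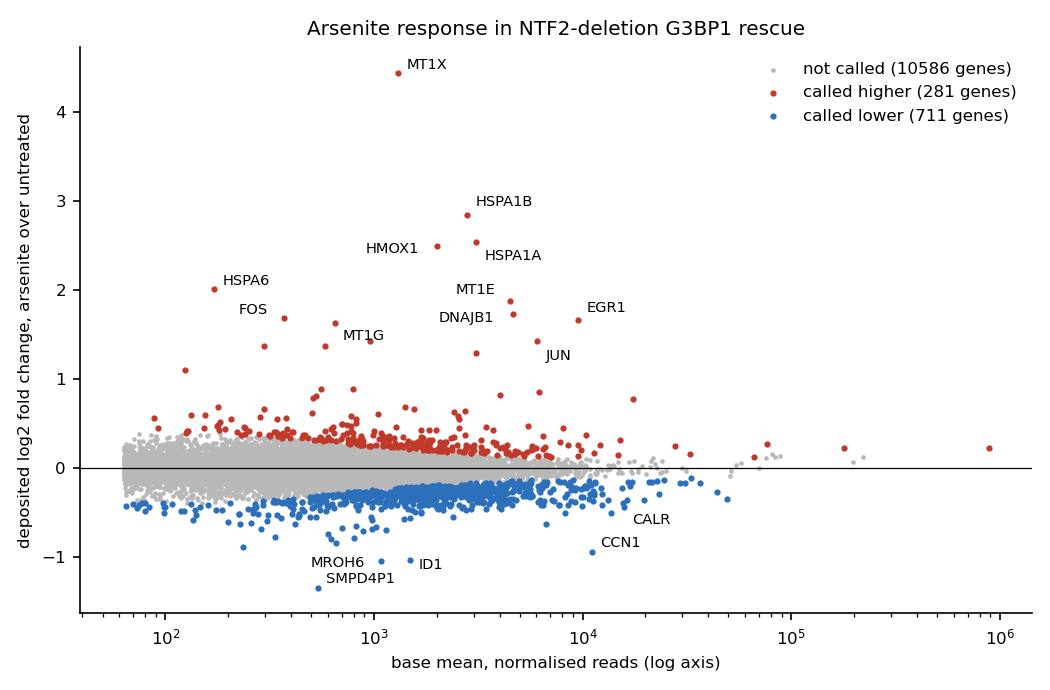
Deposited log2 fold change (arsenite over untreated, NTF2-deletion rescue) against base mean in normalised reads on a log axis, 1 point per tested gene. Red points are the 281 genes called higher and blue points the 711 called lower; MT1X stands highest and SMPD4P1 lowest.

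Metallothioneins, small cysteine-rich proteins that bind zinc and other metals, gave the largest rise. The list of metallothioneins and the zinc exporter SLC30A1 held 12 measured genes. Of these, 5 were tested and all 5 were called higher, against 2.43% of tested genes. Base means take in the arsenite libraries, so MT1X and MT1G, low untreated, may have been tested through their arsenite reads. The share of 5 of 5 is thus no support for a rise of the list as a whole. MT1X was at 3.53 and 2.68 RPM in untreated libraries and 168 and 161 RPM with arsenite, a 53.1-fold rise (the authors' deposited table gives a log2 fold change of 4.44, SE 0.11, with an adjusted p of 0). MT1G rose 21.4-fold, from 4.69 and 2.74 to 83.0 and 76.3 RPM, and the 2 low untreated values differ by more than 1.5 times from each other. MT1E rose 3.86-fold, from 119 and 118 to 462 and 453 RPM. MT2A was already abundant at 859 and 786 RPM and reached 1444 and 1409 RPM, 1.73-fold. The zinc exporter SLC30A1 went from 109 and 114 to 286 and 285 RPM (2.56-fold; the authors' deposited table gives adjusted p = 4.09e-111). No arsenite value of these 5 genes overlapped an untreated one, which held for each of the 992 called genes and so adds nothing to the calls. Metallothionein genes resemble each other closely, and how reads that fit several were counted is not given in the sources used here.

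Several heat shock chaperones rose, the inducible HSP70 genes and DNAJB1 most. The small HSP genes HSPB1, HSPB8 and CRYAB, named after their values were seen, were not called. Of 10 tested HSP70 and HSP110 genes, 5 were called higher and 0 lower. HSPA1B, the major stress-inducible HSP70, stood at 38.8 and 39.6 RPM untreated and 319.9 and 318 RPM with arsenite (8.14-fold, log2 fold change 2.85, SE 0.07 in the authors' deposited table). Its near-identical neighbour HSPA1A went from 51.7 and 53.7 to 329 and 357 RPM (6.51-fold), and reads could be split between the pair. HSPA6, a strictly inducible HSP70, went from 0.899 and 1.30 to 20.9 and 20.9 RPM, a 19.0-fold rise from 14 and 19 reads to 338 and 336. Being low untreated, HSPA6 may have been tested through its arsenite reads. The constitutive HSPA8 rose 1.19-fold and the HSP110 gene HSPH1 1.29-fold. Of 26 tested HSP40, HSP90, small HSP and co-chaperone genes, 10 were called higher (38.5%) and 1 lower (3.85%, against 6.14% of tested genes). The lower gene was SERPINH1, a collagen chaperone (log2 fold change -0.19 in the authors' deposited table). DNAJB1, the HSP40 partner of HSP70, went from 137 and 131 to 465 and 463 RPM (3.47-fold). DNAJA4 rose 1.99-fold, DNAJB4 1.98-fold, the HSP90 co-chaperone CHORDC1 1.59-fold, the nucleotide exchange factor BAG3 1.49-fold and the mitochondrial HSPE1 1.42-fold. The list medians in the authors' deposited table were 0.22 for HSP70 and HSP110 and 0.19 for the others, against 0.01 for all tested genes.

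Protein-disposal genes moved in part. Of 12 tested ubiquitin and autophagy stress genes, 4 were called higher (33.3%, against 2.43% of tested genes) and 0 lower. ZFAND2A, an arsenite-inducible proteasome-associated protein, went from 23.9 and 21.8 to 46.2 and 51.4 RPM (2.13-fold). The autophagy genes GABARAPL1 and MAP1LC3B rose 1.36-fold and 1.21-fold. Of 33 proteasome subunits, 1 was called (PSMC6, 1.23-fold higher), a share of 3.03%, near that of all tested genes.

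HMOX1, which encodes the haem-degrading oxygenase and is a target of NRF2, went from 35.3 and 33.5 to 227 and 218 RPM (6.47-fold; in the authors' deposited table log2 fold change 2.49, SE 0.07, adjusted p = 2.75e-252). Among 26 tested NRF2 antioxidant and thiol genes, 5 were called higher (19.2%, against 2.43% of tested genes) and 0 lower. The others were GCLM, a subunit of the enzyme that limits glutathione synthesis (32.9 and 39.4 to 53.3 and 55.2 RPM), the ferritin chains FTL (1.24-fold) and FTH1 (1.20-fold), and PRDX1 (1.10-fold). The list median was 0.07 on the log2 scale in the authors' deposited table.

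Most tested AP-1 transcription factors rose, and other immediate-early genes moved both ways. Of 12 tested AP-1 and small MAF factors, 8 were called higher (66.7%, against 2.43% of tested genes) and 0 lower. JUN was at 207 RPM in both untreated libraries and at 567 and 581 RPM with arsenite (2.77-fold; in the authors' deposited table log2 fold change 1.43, SE 0.05, adjusted p = 3.24e-212). FOS went from 8.80 and 7.07 to 40.4 and 39.0 RPM (5.01-fold), FOSB from 8.22 and 7.55 to 29.8 and 31.2 RPM (3.87-fold) and ATF3 from 34.4 and 32.9 to 65.7 and 71.4 RPM (2.04-fold). Of 18 tested EGR, NR4A and IER genes, 6 were called higher (33.3%) and 4 lower (22.2%, against 6.14% of tested genes). EGR1 rose 3.27-fold (295 and 278 to 960.5 and 912 RPM) and EGR2 4.71-fold (2.83 and 2.74 to 13.3 and 12.9 RPM), and ZFP36, which promotes decay of AU-rich messages, rose 2.27-fold. The 4 that fell were CCN1, CCN2, IER3 and MYC. CCN1, a secreted matricellular protein and YAP target, went from 948 and 930.4 to 493 and 471 RPM (in the authors' deposited table log2 fold change -0.94, SE 0.04, adjusted p = 7.39e-118). The MAP kinase phosphatases DUSP2 (3.08-fold) and DUSP1 (1.99-fold) were the 2 of 9 tested DUSP genes called, both higher. All these genes had separate ranges in the 2 groups, as did each of the 992 called genes, so this adds nothing to the calls.

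The ATF4 programme was called in part. Of 27 tested genes, 9 were called higher (33.3%) and 2 lower (7.41%), against 2.43% and 6.14% of all tested genes. DDIT3, which encodes CHOP, went from 18.4 and 17.5 to 56.9 and 57.0 RPM (3.18-fold, adjusted p = 1.55e-36 in the authors' deposited table). PPP1R15A, the stress-induced phosphatase subunit that reverses eIF2alpha phosphorylation, rose 1.59-fold, DDIT4 2.18-fold, SESN2 1.39-fold and CEBPG 1.30-fold. The 2 lower genes were the amino acid transporters SLC7A5, from 1196 and 1162 to 869.6 and 859.8 RPM, and SLC7A1, 1.24-fold lower. Of 20 tested p53 pathway genes 3 were called higher, CDKN1A (1.19-fold), GADD45A (1.30-fold) and SESN2. GADD45A and SESN2 were also counted in the ATF4 list. Of 11 tested NF-kappaB targets 2 were called higher and 1 lower. Among 20 tested SR proteins, splicing factors and CLK kinases 3 were higher, led by the splicing kinase CLK1 (1.47-fold). Among 15 hypoxia and glycolysis genes 2 were higher and 1 lower. Shares called higher in the p53, NF-kappaB, splicing and hypoxia lists were 15.0%, 18.2%, 15.0% and 13.3%. The lower shares, 9.09% of NF-kappaB targets and 6.67% of hypoxia genes, rest on 1 gene each and lie near that of all tested genes.

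Many transcripts of the endoplasmic reticulum (ER) folding machinery fell. Of 21 tested ER chaperone and unfolded protein response genes, 0 were called higher and 10 (47.6%) lower, against 6.14% of tested genes. The lectin chaperone CALR was at 1150.2 and 1150.5 RPM untreated and 872 and 866 RPM with arsenite, 1.32-fold lower (in the authors' deposited table log2 fold change -0.40, SE 0.03, adjusted p = 3.92e-28). CANX, its membrane-bound relative, was 1.29-fold lower, and the disulphide isomerases PDIA3, PDIA6 and PDIA4 were 1.35-fold, 1.35-fold and 1.22-fold lower. HSPA5, the main ER HSP70, had 1613 and 1672 RPM untreated and 1572 and 1640.2 RPM with arsenite, which overlap (adjusted p = 0.794 in the authors' deposited table). Of 17 tested cholesterol synthesis genes 7 were lower (41.2%) and 1 higher (5.88%): SQLE was 1.23-fold lower and HMGCS1 was 1.14-fold higher. SPARC, a secreted matrix protein and one of 2 called among 7 tested mesenchymal markers, was 1.43-fold lower (634 and 620.5 to 437 and 440.3 RPM), beside VIM (1.12-fold lower).

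Some noncoding transcripts were among the larger decreases, but as a class they were not more frequent among genes called lower. Long noncoding RNAs made up 2.865% of genes called lower and 3.67% of all tested, and pseudogenes 1.576% and 2.21%. Of 22 tested small nucleolar RNA host genes, 0 were higher and 7 (31.8%) lower, against 6.14% of tested genes called lower. Their median log2 fold change was -0.19 in the authors' deposited table. SNHG12 was 2.08-fold lower (28.1 and 30.5 to 15.4 and 12.7 RPM), ZFAS1 1.85-fold and SNHG3 and SNHG4 1.71-fold each. ID1, a BMP-induced inhibitor of bHLH factors, went from 138 and 126 to 58.1 and 61.8 RPM (2.20-fold lower; the authors' deposited table gives adjusted p = 7.07e-37), and the BMP antagonist NOG was 1.69-fold lower. The largest decrease among called genes was in the pseudogene SMPD4P1, from 56.7 and 49.3 to 17.3 and 15.7 RPM (3.22-fold lower), whose reads could be shared with related copies. Of 17 tested YAP target genes, 6 were lower (35.3%, against 6.14% of tested genes) and 2 higher (11.8%, against 2.43%). They ran from CCN1 at the low end to GADD45B (1.66-fold higher) at the high end. By contrast, 17 of 335 tested ZNF zinc-finger genes were higher (5.07%, against 2.43% of tested genes) and 1 lower, with a list median of 0.11 in the authors' deposited table. Cytosolic ribosomal protein genes barely moved, with 1 of 83 called (RPL36A, 1.62-fold lower).

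**Figure D2:**
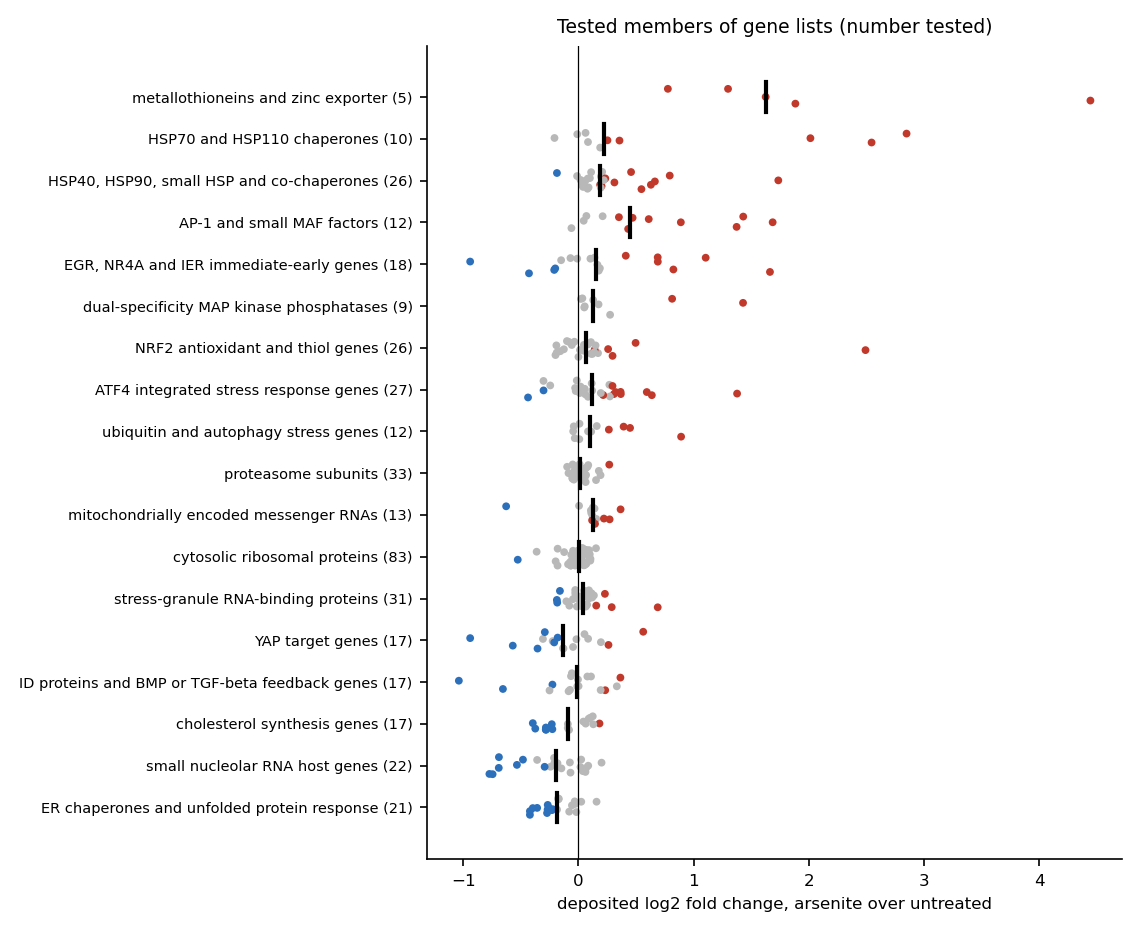
Deposited log2 fold change of each tested member (points) of 18 gene lists, red where called higher, blue where called lower and grey otherwise; black bars mark list medians and the number tested stands in parentheses. The 5 metallothionein-list genes all lie right of 0, and the 10 called ER genes all lie left of it.

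Of the 13 mitochondrially encoded messenger RNAs, 5 were higher (38.5%) and 1 lower (7.69%), against 2.43% and 6.14% of tested genes. MT-ATP8 rose 1.30-fold and MT-ATP6 1.21-fold, while MT-ND6, the only one transcribed from the light strand, went from 491 and 573 to 322 and 325 RPM (1.64-fold lower; adjusted p = 5.13e-10 in the authors' deposited table). Whether counting used the strand is not given in the sources used here, so MT-ND6 reads cannot be told apart from those of its antisense strand. The share of reads from mitochondrial genes was 7.75% and 7.27% untreated and 8.45% and 8.05% with arsenite, and its part in the other results was not tested. Among 31 RNA-binding proteins found in stress granules, 4 (12.9%) were higher: PABPC1 1.11-fold and NUFIP2 1.24-fold, with ZFP36 and G3BP1 itself. In the same list 3 were lower (ATXN2L, DDX3X and EIF4G1, each 1.12-fold to 1.15-fold). Their share, 9.68%, lies near the 6.14% of all tested genes.

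The response was then compared with that of knockout cells without a transgene, which share no library with it. The authors' deposited tables call 1326 genes higher (8.56% of 15497 tested) and 1685 lower (10.9%) there. Of the 281 genes called higher with NTF2-deleted G3BP1, 211 were also called higher in the cells without a transgene and 4 lower, and of the 711 called lower 532 were also lower and 14 higher. The difference between the 2 deposited log2 fold changes was tested for the 15442 genes whose base mean reached 10 in both (z test, Benjamini-Hochberg adjusted). It was positive in 624 genes (4.04%) and negative in 475 (3.08%). Of the 624, 618 were called lower in the cells without a transgene, and 621 had the smaller absolute ratio of means with NTF2-deleted G3BP1. Of the 475, 432 were called higher in the cells without a transgene, and 435 had the smaller absolute ratio with NTF2-deleted G3BP1. The deposited fold changes were shrunken more with NTF2-deleted G3BP1 (prior width 0.278) than in knockout cells (0.637). The z test therefore favours genes that change less with the transgene, and the part of this in the directions was not tested. With the shrinkage undone, 448 differences were called positive and 387 negative.

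Immediate-early genes stood furthest apart. FOSB reached 593 and 674 RPM in arsenite-treated knockout cells (355-fold) and 29.8 and 31.2 RPM with the transgene (3.87-fold), a difference of -6.26 (SE 0.21, adjusted p = 1.41e-184) between the authors' deposited tables. ATF3 rose 73.1-fold in knockout cells, to 1203 and 1268 RPM, against 2.04-fold with NTF2-deleted G3BP1. FOS rose 84.0-fold against 5.01-fold, EGR2 44.7-fold against 4.71-fold and JUN 26.6-fold against 2.77-fold. Untreated levels differed too: JUN was at 62.3 and 59.2 RPM in untreated knockout cells against 207 RPM with the transgene, and reached 1720.3 and 1507 against 567 and 581 RPM with arsenite. FOS was at 5.46 and 6.30 against 8.80 and 7.07 RPM untreated and at 494 RPM in both arsenite knockout libraries against 40.4 and 39.0 RPM. In all, 18 of 23 EGR, NR4A and IER genes and 10 of 12 AP-1 and small MAF factors had a more negative response with NTF2-deleted G3BP1 in the authors' deposited tables, against 3.08% of genes tested, and 0 a more positive one. CCN1 and CCN2 changed direction: they rose 5.22-fold and 8.72-fold in knockout cells and fell 1.95-fold and 1.16-fold with the transgene (differences of -3.32 and -3.33 between the authors' deposited tables, with an adjusted p of 0 for both). TAGLN, an actin-binding protein of contractile cells, rose 21.6-fold in knockout cells and 1.33-fold with the transgene. MYC rose 2.54-fold without a transgene and fell 1.16-fold with it. Because the labels give the knockout cells no transfection, G3BP1 and lipofection cannot be told apart in these differences.

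All 5 tested genes of the metallothionein list, 5 of 11 HSP70 and HSP110 genes and 13 of 26 HSP40, HSP90 and co-chaperone genes also had a more negative response than in knockout cells in the authors' deposited tables, against 3.08% of genes tested. A more positive one was called in 0, 2 (HSPA13, which fell 1.17-fold against 1.66-fold, and HSPA6) and 0. HSPA1B reached 1012 and 768 RPM in knockout cells (30.2-fold against 8.14-fold), DNAJB1 1060.2 and 886 RPM (10.4-fold against 3.47-fold) and HMOX1 161 and 157 RPM (11.2-fold against 6.47-fold). HMOX1's arsenite level was nonetheless higher with NTF2-deleted G3BP1, at 227 and 218 RPM, and its untreated level there was 35.3 and 33.5 against 15.0 and 13.2 RPM. MT2A rose 7.10-fold in knockout cells from 152 and 159 RPM. Its arsenite level there, 1157 and 1049.7 RPM, lay below the 1444 and 1409 RPM with the transgene. HSPA6 depended on the shrinkage: the difference between the authors' deposited tables was 1.09 in favour of the NTF2-deletion rescue (adjusted p = 0.0082), yet the reads rose 531-fold in knockout cells (0 and 4 reads to 1555 and 945) and 19.0-fold with the transgene, and limma on the recovered reads gave -2.98 (SE 0.26, adjusted p = 2.29e-11). MT1G's deposited difference of -3.49 likewise became -1.04 (limma, adjusted p = 7.68e-05).

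Most ER transcripts fell less with the transgene. Of 21 ER genes, 16 had a more positive response than in knockout cells, against 4.04% of genes tested, and 0 a more negative one. CALR fell 1.32-fold with NTF2-deleted G3BP1 and 1.99-fold without a transgene (difference 0.58, SE 0.06, adjusted p = 1.3e-16 between the authors' deposited tables), and the arsenite levels met at 872 and 866 against 848 and 794 RPM from untreated levels of 1150.2 and 1150.5 against 1644 and 1633 RPM. SPP1, the secreted phosphoprotein osteopontin, had 27.0 and 24.1 RPM untreated and 25.1 and 24.5 RPM with arsenite, which overlap, while in knockout cells it fell 2.48-fold (difference 1.19, SE 0.18, adjusted p = 9.55e-09 between the authors' deposited tables). SNHG3 fell 1.71-fold and 3.22-fold. MGST1, a microsomal glutathione transferase, fell 2.20-fold without a transgene and was not called with it (adjusted p = 0.712 in the authors' deposited table).

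**Figure D3:**
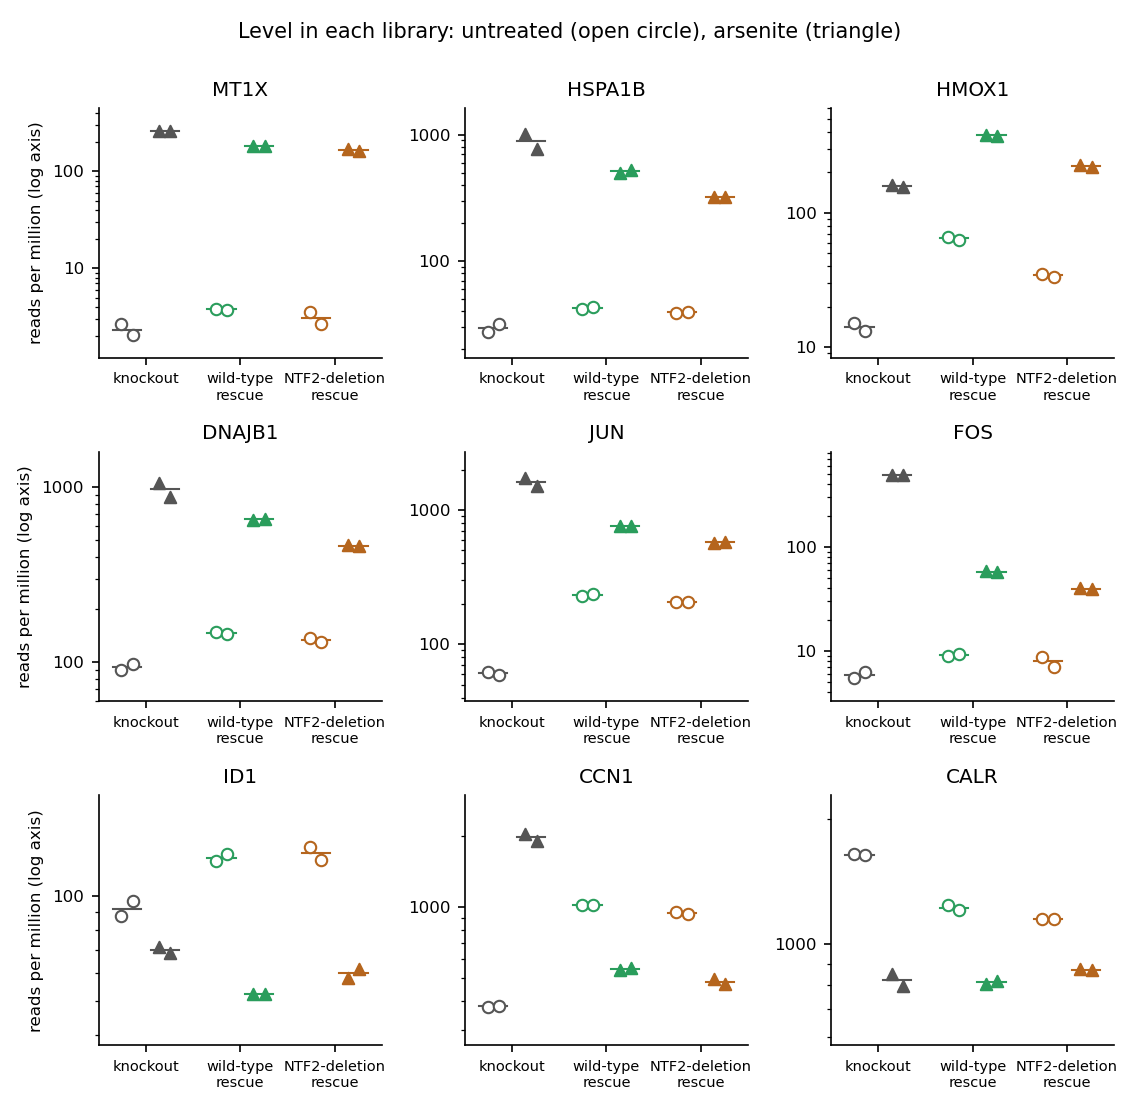
Level in RPM on a log axis for 9 genes in each of 12 libraries: knockout (grey), wild-type rescue (green) and NTF2-deletion rescue (brown), untreated as open circles and arsenite as triangles, with a line at each mean of 2. FOS and JUN triangles are far higher in knockout cells than in either rescue, CCN1 rises in knockout cells and falls in both rescues, and HSPA1B triangles are lowest with the NTF2 deletion.

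Against wild-type G3BP1 the responses were much closer. The authors' deposited tables call 1116 genes higher (8.18% of 13635 tested) and 1667 lower (12.2%) with the wild-type transgene. Of the 281 genes called higher with the NTF2 deletion 236 were also called higher with wild-type G3BP1 and 1 lower, and of the 711 lower 680 were also lower and 0 higher. Of 15865 genes tested, 36 (0.227%) had a more positive response with the NTF2 deletion between the authors' deposited tables. A more negative one was called in 16 (0.101%). An unadjusted p under 0.05 was found for 641 genes by this z test and for 1382 by limma. Each of the 16 was called higher with wild-type G3BP1 and each of the 36 lower, and all 52 had the smaller absolute ratio with the NTF2 deletion. Here too the fold changes with the NTF2 deletion were shrunken more (prior width 0.278 against 0.371), which favours such genes in the z test. The wild-type arsenite libraries were deeper, at 27755473 and 19074162 gene reads, and the part of depth in the differences was not tested. With the shrinkage undone, 19 and 4 genes were called in place of 36 and 16. Limma called 52 and 15, and with 1 library left out 15 to 99 and 3 to 26.

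The 16 held 7 of the 37 tested genes of the 2 HSP lists, against 0.101% of all genes tested. HSPA1A, HSPA1B, DNAJB1 and HSPE1 were also called by limma and were the 4 genes still called with the shrinkage undone. HSPA6 and HSP90AA1 were called by limma only, and DNAJA4 by neither (limma adjusted p = 0.0735). Those of the 7 outside the naming rule are named after their values were seen. HSPA1A reached 329 and 357 RPM with the NTF2 deletion and 531 and 583 RPM with wild-type G3BP1, from similar untreated levels of 51.7 and 53.7 against 52.8 and 54.6 RPM (6.51-fold against 10.4-fold; difference -0.66, SE 0.10, adjusted p = 1.93e-07 between the authors' deposited tables; limma -0.67, adjusted p = 1.2e-09). HSPA1B rose 8.14-fold against 12.1-fold, DNAJB1 3.47-fold against 4.49-fold and HSPE1 1.42-fold against 1.98-fold, and limma called these 3 differences as well (adjusted p = 4.78e-08, 4.18e-05 and 0.00102). HSPA6 rose 19.0-fold against 32.5-fold, and its difference went from -1.79 between the authors' deposited tables to -0.76 with the shrinkage undone. JUN, at 2.77-fold against 3.28-fold, was also among the 16, with an adjusted p of 0.0538 with the shrinkage undone. MT1G, FOS and EGR2 were called in the deposited difference (-2.35, -0.72 and -0.92 between the authors' deposited tables) but not by limma on the reads (-0.18, -0.34 and -0.43, adjusted p = 0.828, 0.411 and 0.536). MT1X, HMOX1, EGR1 and SLC30A1 were not called, with differences of -0.48 (SE 0.15), -0.0009 (SE 0.09), -0.11 (SE 0.06) and 0.01 (SE 0.07) between the authors' deposited tables.

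The 36 held 2 of the 21 ER genes (CALR and CANX), against 0.227% of genes tested. CALR was also called by limma and with the shrinkage undone, and CANX by neither (adjusted p = 0.0596 and 0.0733). Limma called 34 of the 36. MMP3, a secreted matrix metalloproteinase with under 0.4 RPM in each library without a transgene, had 333 and 349.8 RPM untreated and 337 and 336 RPM with arsenite in the NTF2-deletion rescue, whereas it went from 590.5 and 568 to 368 and 391 RPM with wild-type G3BP1 (difference 0.60, SE 0.06, adjusted p = 1.09e-18 between the authors' deposited tables). SPP1 fell 1.71-fold with wild-type G3BP1, and PRDX4, the ER peroxiredoxin, fell 1.67-fold against 1.24-fold with the NTF2 deletion, a difference not called with the shrinkage undone (adjusted p = 0.118). ATP6V0B, a subunit of the vacuolar proton pump, had 135 and 129 against 123 and 125 RPM with the deletion and fell 1.42-fold with wild-type G3BP1. The largest difference was in RN7SL1, the RNA of the signal recognition particle, which rose 1.17-fold with the deletion and fell 2.35-fold with wild-type G3BP1 (difference 1.44, SE 0.07, adjusted p = 4.34e-92 between the authors' deposited tables). RN7SL3 was not called with the deletion and fell 2.06-fold with wild-type G3BP1. The related RN7SL472P, named after its values were seen, went the other way (difference -0.99 between the authors' deposited tables), which limma did not call (adjusted p = 0.706). RN7SL RNAs have no poly-A tail and many near-identical copies, the libraries were made from poly-A RNA, and knockout libraries ranged from 316 to 615 RPM of RN7SL1.

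**Figure D4:**
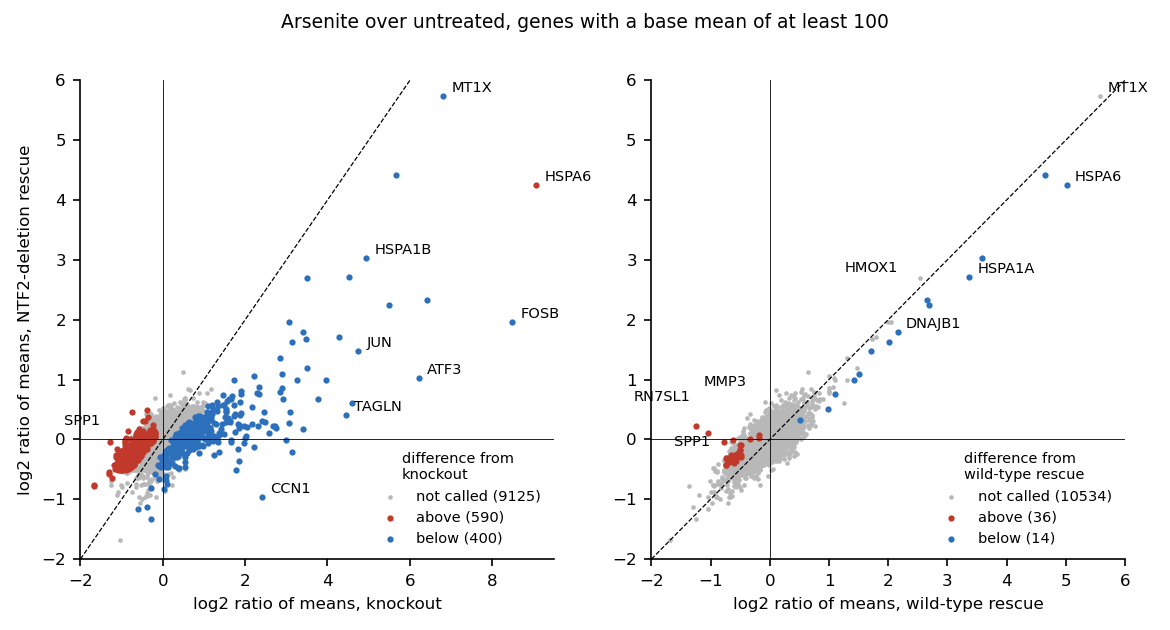
Log2 ratio of group means (arsenite over untreated) with NTF2-deleted G3BP1 on the vertical axis against knockout cells (left) and wild-type rescue (right), for genes whose base mean reached 100 in both; red and blue mark a called positive or negative difference of deposited fold changes, and the dashed line marks equal ratios. Points to the right in the left panel fall far below the line, HSPA6 included although its shrunken difference was called positive, and the right panel lies close to it.

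**Figure D5:**
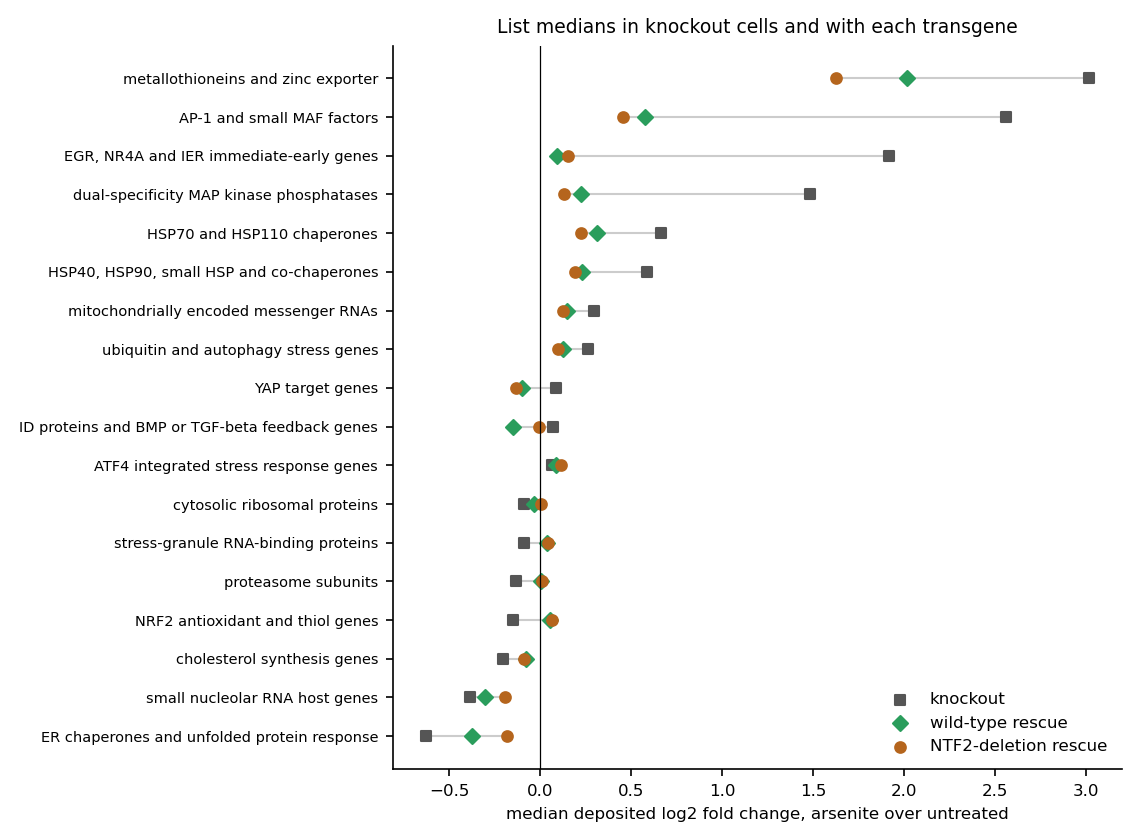
Median deposited log2 fold change of tested members of 18 lists in knockout cells (squares), wild-type rescue (diamonds) and NTF2-deletion rescue (circles). AP-1 and small MAF factors had medians of 2.56, 0.58 and 0.45 in that order, and ER genes of -0.63, -0.38 and -0.18.

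Across genes whose base mean reached 100 in both tables, the ratios with NTF2-deleted G3BP1 correlated with those of knockout cells at r = 0.694 (rho = 0.623, 10115 genes) and with those of wild-type rescue at r = 0.830 (rho = 0.730, 10584 genes). These are descriptions across genes, which are not independent replicates. The series also holds a separate experiment of G3BP1 immunoprecipitate against input, whose labels name no arsenite. In the authors' deposited table of it, 69 (25.1%) of 275 tested genes that arsenite raised here were called enriched and 145 (52.7%) depleted. Of 676 that arsenite lowered, 246 (36.4%) were enriched and 321 (47.5%) depleted. Over all 11157 genes tested in both, the shares were 40.3% and 39.1%.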

How the data were processed

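Poly-A RNA libraries of U2OS cells were made with a directional kit, per the labels' protocols. STAR 1.5.3 and DESeq2 2.11.40.6 are named in the submitters' processing notes; genome build, annotation and strand use are not given in the sources used here. The authors deposited 11 tables of DESeq2 comparisons, of which 8 were used: a base mean (signal, the average of size-factor normalised reads in the 4 compared libraries, per the file headers), a log2 fold change with its standard error, a Wald score, and raw and adjusted p-values, all as deposited. Rows starting N_ (4 summary lines a table) were removed. Genes were called at the deposited adjusted p under 0.05 (Wald test, Benjamini-Hochberg).

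The largest deposited standard errors gave the widths of the zero-centred shrinkage prior, 0.278 for this response, 0.637 for knockout and 0.371 for wild-type rescue, so fold changes were shrunken unequally. Because base means of overlapping tables are weighted sums of whole reads, reads per library of 12 libraries were recovered from them by lattice reduction: all 35220 genes with reads in the tables of the NTF2-deletion rescue and all 35655 of the wild-type rescue were solved in whole reads (largest relative residual 1.37e-14), and knockout reads solved from both sets were equal in 29705 of 29705 genes. Libraries recovered this way carry no replicate number. The reads served for levels (RPM), ratios and limma 3.58.1 (trend, log2 of RPM + 1), an alternative test. Scripts were tested on simulated data.

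Differences between responses were tested by a z test on the 2 deposited fold changes and their standard errors. Gene symbols came from a reference table. Members, lists and tests were chosen with earlier results of these data known. Named genes were the 12 highest and 12 lowest called genes whose base mean reached 100, up to 6 called members of each list in each direction, the 6 largest called differences in each direction, G3BP1 and G3BP2; others are said to be chosen after their values were seen or serve as background values. Alternatives were a stricter threshold, adjustment over all genes, a base mean filter, a fold minimum, centring on the median, limma, undoing the shrinkage and leaving out each library. Per-gene counting precision is limited by 14572458 to 16164909 gene reads a library, with 2 libraries a group. Some genes are not reported here.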

Additional observations from a re-analysis of the deposited data

Results flagged for a closer look

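The arsenite response with NTF2-deleted G3BP1 differed from the knockout's in 624 genes with a more positive and 475 with a more negative response, by the z test on the authors' deposited tables, and from that of wild-type rescue in 36 and 16. The 2 tests share the libraries of the NTF2-deletion rescue.

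Against the knockout, the named genes with the most negative differences were FOSB (-6.26), ATF3 (-5.19), FOS (-4.44), TAGLN (-3.98), EGR2 (-3.89) and MT1G (-3.49), between the authors' deposited tables. Those with the most positive ones were SPP1 (1.19), HSPA6 (1.09), CLEC2B (0.94), KDELR3 (0.92), SNHG3 (0.91) and MGST1 (0.90). The HSPA6 difference changed sign, to -4.82 with the shrinkage undone and -2.98 with limma on the recovered reads. MT1G's became -1.04 with limma. CLEC2B, a C-type lectin, fell 1.71-fold in the knockout and had 8.28 and 8.78 RPM untreated and 11.6 and 11.7 RPM with arsenite here. KDELR3, a receptor that returns proteins to the ER, fell 2.51-fold in the knockout and was not called here (adjusted p = 0.317 in the authors' deposited table). Its difference was not called by the z test with the shrinkage undone (0.77, adjusted p = 0.293). Limma called it (0.79, adjusted p = 0.00688).

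Against wild-type rescue, the most negative differences between the authors' deposited tables among genes whose base mean reached 100 were in MT1G (-2.35), HSPA6 (-1.79), EGR2 (-0.92), FOS (-0.72), HSPA1B (-0.66) and HSPA1A (-0.66), and the most positive in RN7SL1 (1.44), RN7SL3 (1.03), SPP1 (0.69), MMP3 (0.60), PRDX4 (0.45) and ATP6V0B (0.42). Limma did not call MT1G, EGR2 and FOS. With the shrinkage undone, MT1G, HSPA6, EGR2, FOS and PRDX4 were not called. HSPA1B and HSPA1A were called both ways. The groups held 2 libraries each, so no single library could be tested as standing apart.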

How the results depend on the processing

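No paired analysis was possible because the libraries recovered from the deposited base means carry no replicate number, and no replicate block was fitted.

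The 281 genes called higher became 159 at an adjusted p under 0.01, 44 with a log2 fold change of at least 0.5 and 955 with limma on recovered reads. The 711 called lower became 47 with a fold minimum of 0.5 and 1472 with limma, so 28.3% of the authors' calls and 39.3% of limma's were higher. All 992 calls were also limma calls of the same sign. With 1 library left out, limma called 361 to 1226 higher and 852 to 1401 lower, the fewest without the arsenite library of 16164909 gene reads, and 391 and 898 without the other arsenite library. Here and below the lone library left is assumed to vary like the other groups.

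Against the knockout, the 624 positive differences became 391 at p under 0.01, 316 of at least 0.5 and 1215 with limma (712 to 1172 with 1 library left out), and the 475 negative ones 822 with limma (544 to 840). The fewest, 712 and 544, came without the arsenite library of 16062841 gene reads, and 760 and 555 came without the other. HSPA6 turned from 1.09 to -4.82 with the shrinkage undone and -2.98 with limma (-3.33 to -2.63 with 1 library left out).

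Against wild-type rescue, the 36 positive differences became 19 at p under 0.01, 4 of at least 0.5 and 19 with the shrinkage undone, and the 16 negative ones 4 with the shrinkage undone. Limma called 52 and 15, and with 1 library left out 15 to 99 and 3 to 26, the lowest without the arsenite library of 16164909 gene reads. Of the 8 libraries, leaving out each one but the untreated NTF2-deletion library of 15574177 gene reads (75) moved the 52 by over 1.5 times, to 26 and 99 at the other NTF2-deletion libraries and to 17, 24, 27 and 19 at the wild-type ones. The 15 moved so without each library but the untreated NTF2-deletion library of 14572458 gene reads (21). MT1G lay between -0.48 and 0.12. Of the 36 and 16, limma called 43 with the same sign and 0 with the opposite one.

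Centring on the median of all genes turned the list medians of ribosomal proteins to -0.0085 and of G2/M genes to -0.00065. The cause of these changes was not tested. Low genes with few untreated reads, such as HSPA6 and MT1G, limit ratios most.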
